A study of Homo sapiens with 32 samples.

Results

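Gene-dense bins were 10-kb pieces of human chromosomes 1 to 22 (build hg38, bins counted from position 1) that had 40 or more protein-coding genes within the bin and 1 Mb on either side. Genes were taken from the RefSeq annotation of GRCh38, and no island was used to choose the bins. By this rule 18986 of 287295 bins were gene-dense, which is 6.61% of the bins, and they overlapped 5716 of the 18969 genes used. The remaining 268309 bins had 39 genes or fewer in the same window. The bins formed 154 uninterrupted stretches on 20 chromosomes, with none on chromosomes 13 and 18, and chromosome 19 held 4329 of them (22.8%).

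Islands of H3K27me3 (trimethylated lysine 27 of histone H3) were measured by ChIPmentation in MDA-MB-231, an established line of triple-negative breast cancer cells. There were 4 groups of 4 libraries. EPZ cells received an EZH2 inhibitor (EP7 in the sample titles), P38i cells received a p38 inhibitor, Combo cells received both, and Control cells received neither. All groups came from the same line and the study's design gives a treatment of 24 h. Whether the 4 libraries of a group are separate cultures is not in the labels, so p-values measure only the spread between these libraries, which may be technical. A matching set of 16 IgG libraries was not analysed here. The deposited lists give only where islands start and end, so the values below are percentages of a bin or gene that was called, not amounts of the mark. Read depth is unknown. The 16 lists covered 462 to 656 Mb of chromosomes 1 to 22, and the 3 shortest were EPZ replicates 1 and 2 and Control replicate 4. Over markers of cell identity, PGR (progesterone receptor) was 95.4% covered and FOXA1 (a luminal transcription factor) 56.6% covered on average. ESR1 (estrogen receptor) was 10.2% covered, and GATA3, CDH1, EPCAM, VIM, ZEB1, CD44, FN1 and AXL had no island in any library. The lists hold no expression values.

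EZH2 is the catalytic subunit of Polycomb repressive complex 2, which places H3K27me3. The mark can spread into broad domains over silent genes and gene clusters, and it is depleted over genes that are actively transcribed. Gene-dense parts of the human genome hold many housekeeping genes, and also tandem clusters of related genes, such as olfactory receptors, keratins and immunoglobulin-like receptors, which are used in few tissues, and KRAB zinc finger genes, many of which are expressed broadly.

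Promoters of 6 genes from gene-dense bins are shown first. They belong to the named genes with the largest differences between cells with and without the EZH2 inhibitor that had an island over the promoter in at least 8 libraries. The genes of 5 of them were called lower with the inhibitor, and KRT26 was not called. Each is a RefSeq window of GRCh38.p14 from 250 bases before to 50 bases after the gene's first listed start, read 5′ to 3′, with every CG dinucleotide in capitals. A window counted as covered in a library when islands took up 50% or more of it.
OR52N5: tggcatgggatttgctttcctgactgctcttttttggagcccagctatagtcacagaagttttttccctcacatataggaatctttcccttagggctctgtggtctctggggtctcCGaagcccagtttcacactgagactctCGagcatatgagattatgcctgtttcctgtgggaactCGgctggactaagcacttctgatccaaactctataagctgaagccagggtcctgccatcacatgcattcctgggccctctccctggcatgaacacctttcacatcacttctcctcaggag
OR2AG1: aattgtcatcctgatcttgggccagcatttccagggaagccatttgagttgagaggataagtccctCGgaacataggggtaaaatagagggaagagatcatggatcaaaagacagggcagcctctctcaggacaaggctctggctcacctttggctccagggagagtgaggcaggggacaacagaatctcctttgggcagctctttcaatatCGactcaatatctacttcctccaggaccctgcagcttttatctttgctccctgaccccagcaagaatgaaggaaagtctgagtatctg
KRT28: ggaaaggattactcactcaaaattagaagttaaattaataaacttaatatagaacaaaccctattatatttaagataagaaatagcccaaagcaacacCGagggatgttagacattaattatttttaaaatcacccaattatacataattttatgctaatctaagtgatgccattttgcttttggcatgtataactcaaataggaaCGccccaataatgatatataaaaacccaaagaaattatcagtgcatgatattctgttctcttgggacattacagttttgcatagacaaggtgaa
OR56B2: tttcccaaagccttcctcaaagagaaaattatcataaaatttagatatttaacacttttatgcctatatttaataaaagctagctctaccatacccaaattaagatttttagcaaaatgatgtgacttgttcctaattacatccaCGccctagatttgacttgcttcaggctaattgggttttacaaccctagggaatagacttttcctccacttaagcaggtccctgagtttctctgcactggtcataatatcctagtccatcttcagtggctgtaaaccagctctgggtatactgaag
CLEC12B: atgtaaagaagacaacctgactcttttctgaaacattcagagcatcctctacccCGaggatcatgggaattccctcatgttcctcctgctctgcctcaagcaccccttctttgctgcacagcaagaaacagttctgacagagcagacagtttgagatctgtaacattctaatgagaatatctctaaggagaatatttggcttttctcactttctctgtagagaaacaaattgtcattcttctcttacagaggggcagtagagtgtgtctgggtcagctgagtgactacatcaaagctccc
KRT26: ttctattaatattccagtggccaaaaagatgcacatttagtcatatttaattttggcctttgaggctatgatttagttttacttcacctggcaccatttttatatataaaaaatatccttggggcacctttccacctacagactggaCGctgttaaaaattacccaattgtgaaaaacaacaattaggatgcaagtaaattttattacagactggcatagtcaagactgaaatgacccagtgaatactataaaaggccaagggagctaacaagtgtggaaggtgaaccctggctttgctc

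The OR52N5 window (chr11:5783306-5783605, minus strand) was covered in 0 EPZ, 4 P38i, 2 Combo and 4 Control libraries. The OR2AG1 window (chr11:6782770-6783069, plus strand) was covered in 2 EPZ libraries and in all 4 of each other group. For KRT28, a keratin of the hair root sheath (chr17:40799910-40800209, minus strand), the counts were 3 EPZ, 2 P38i, 4 Combo and 4 Control libraries. The OR56B2 window (chr11:5760903-5761202, plus strand) was covered in 3 EPZ, 4 P38i, 3 Combo and 4 Control libraries. For CLEC12B, a C-type lectin (chr12:10010377-10010676, plus strand), the window was covered in 1 EPZ, 2 P38i, 2 Combo and 4 Control libraries. The KRT26 window (chr17:40772152-40772451, minus strand) was covered in 4 EPZ, 2 P38i, 4 Combo and 3 Control libraries. These 6 windows held 1 to 3 CG dinucleotides each.

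For contrast, the windows of RPL12 and RPL13, which encode proteins of the large ribosomal subunit, were covered in none of the 16 libraries. They held 27 and 37 CG dinucleotides. The RPL12 window is chr9:127451357-127451656 on the minus strand and the RPL13 window is chr16:89560407-89560706 on the plus strand.
RPL12: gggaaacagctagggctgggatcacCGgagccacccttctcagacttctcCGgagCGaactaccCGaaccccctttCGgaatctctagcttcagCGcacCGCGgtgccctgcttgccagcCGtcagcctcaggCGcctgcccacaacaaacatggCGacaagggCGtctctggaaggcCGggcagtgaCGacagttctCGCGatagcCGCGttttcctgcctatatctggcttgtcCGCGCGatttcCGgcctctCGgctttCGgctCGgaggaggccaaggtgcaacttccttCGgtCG
RPL13: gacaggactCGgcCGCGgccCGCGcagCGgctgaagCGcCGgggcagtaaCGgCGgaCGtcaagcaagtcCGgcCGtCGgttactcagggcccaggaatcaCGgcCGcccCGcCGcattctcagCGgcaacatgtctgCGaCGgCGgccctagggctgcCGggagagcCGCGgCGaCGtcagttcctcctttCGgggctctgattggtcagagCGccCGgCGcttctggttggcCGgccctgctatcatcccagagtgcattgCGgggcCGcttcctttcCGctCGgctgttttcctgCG

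Across the 27305 genes of the promoter table, 95.8% of windows of this length held at least 1 CG, and the median was 14. CG reads the same on both strands. A window was available for 4445 of the 5716 genes in gene-dense bins (77.8%), too few for a summary of base composition over all of them, so this is given for 5 families with at least 80% matched. The 216 matched olfactory receptor genes (of 265) had a median of 1 CG, and 67 of their windows were covered in all 16 libraries. The 263 matched zinc finger genes (of 313) had a median of 22 CG, 1 window was covered in all 16 libraries and 247 (93.9%) were covered in none. In the epidermal differentiation complex, a block of skin barrier genes, the 56 matched genes (of 60) had a median of 3 CG and 9 windows were covered in all 16 libraries. The 50 matched keratin-associated protein genes (of 57) had a median of 2.5 CG and no window covered in all 16. The 47 matched clustered protocadherin genes (of 53) had a median of 7 CG, with 1 window covered in all 16 libraries and 26 in none.

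Gene-dense bins carried less island than the rest of the genome in every library. In gene-dense bins the mean percent covered was 15.3 ± 1.05% in EPZ, 17.9 ± 1.38% in P38i, 16.4 ± 1.24% in Combo and 16.0 ± 1.55% in Control cells (SD, n = 4 each). In all other bins it was 18.1 ± 1.95%, 21.2 ± 2.11%, 19.3 ± 1.48% and 20.3 ± 2.69% in the same order of groups. By library, gene-dense bins were 14.5, 14.4, 16.5 and 15.9% covered in EPZ cells, 18.1, 18.04, 19.5 and 16.1% in P38i cells, 15.9, 14.8, 17.6 and 17.1% in Combo cells, and 17.985, 16.2, 15.5 and 14.3% in Control cells. P38i libraries were the highest as a group, but every pair of groups overlapped. Gene-dense bins were lower than the others in 16 of 16 libraries, and held 5.10 to 5.93% of the covered length of a list. This did not hold on every chromosome. By the mean of the 16 libraries, gene-dense bins were more covered than the rest of their chromosome on chromosomes 6, 11, 14, 19 and 21. The values were 15.5 against 12.5% on chromosome 19 and 30.6 against 18.2% on chromosome 6. On the other chromosomes with gene-dense bins they were less covered.

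Coverage did not fall steadily with gene density. Mean coverage over the 16 libraries was 1.84% in bins with no gene in the window, then 21.6% with 1 to 9 genes, 23.3% with 10 to 19, 16.7% with 20 to 29 and 13.4% with 30 to 39. Within the gene-dense bins it was 17.9% with 40 to 49 genes, 15.3% with 50 to 59 and 15.7% with 60 or more. Bins with 40 to 49 genes were more covered than bins with 30 to 39 in 16 of 16 libraries. At the threshold itself, the 900 bins with exactly 40 genes were 12.2% covered and the 979 bins with exactly 39 genes were 11.8% covered. Neighbouring bins share islands and windows, so bins are not independent points. Assembly gaps and unmappable sequence were not removed from the bins. Of the 21236 bins with no gene in the window, 90.6% had no island in any library. They count among the other bins with which gene-dense bins are compared.

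**Figure D1:**
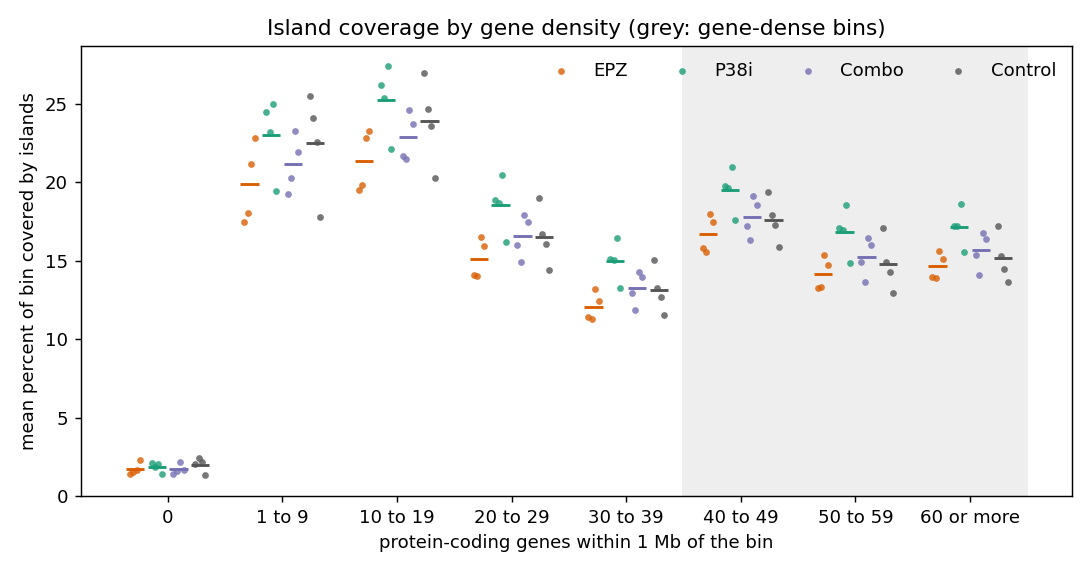
Mean percent of a 10-kb bin covered by H3K27me3 islands (vertical axis) against the number of protein-coding genes within 1 Mb (horizontal axis); each point is 1 library, bars are group means of 4 libraries, and the grey area marks gene-dense bins. Coverage is 23.3% with 10 to 19 genes, 13.4% with 30 to 39 and 17.9% with 40 to 49, and bins with 40 to 49 genes are above bins with 30 to 39 in all 16 libraries.

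Most gene-dense bins were free of islands. No library had an island in 13053 gene-dense bins (68.8%), against 57.9% of the other bins. At the other end, 1898 gene-dense bins (10.0%) were at least 50% covered in all 16 libraries, against 9.39% of the others. Gene-dense bins that overlapped a protein-coding gene were 11.5% covered on average, and those that overlapped none were 30.2% covered. The same 2 values for the remaining bins were 17.4% and 21.6%.

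Stretches of gene-dense bins differed widely. Of the 81 stretches of 20 or more bins, 11 had no island in any library, 43 had a mean coverage under 5% and 17 were over 25%. Those 17 held 4161 bins, which is 21.9% of the gene-dense bins, and 49.1% of their covered length. The highest 3 were olfactory receptor clusters. On chromosome 6, the 25 bins from OR2B3 to OR14J1 were 88.4% covered (77.5 to 94.2% over the 16 libraries). On chromosome 11, the 183 bins from OR6X1 to EI24, with 22 olfactory receptor genes, were 72.3% covered (68.6 to 75.1%). A second chromosome 11 cluster of 360 bins between PGAP2 and SYT9, with 63 olfactory receptor genes, was 53.9% covered (48.9 to 58.0%).

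The next stretches held other tandem families. The 313 bins from PYHIN1 to OLFML2B on chromosome 1 were 42.8% covered. On chromosome 20, the 196 bins from PKIG to ZNF334, which include the WFDC protease inhibitor genes, were 42.6% covered. The chromosome 7 stretch from ACTR3C to RHEB, with the GIMAP genes for lymphocyte GTPases, was 40.4% covered. On chromosome 6, the 373 bins from CARMIL1 to TRIM27, with 55 histone and 13 zinc finger genes, also averaged 40.4%. Another olfactory receptor cluster of chromosome 11, from OR4C15 to GLYAT with 57 such genes, was 37.7% covered.

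At the low end, the 3 stretches given here had no island in any of the 16 libraries. These ran from CFAP57 to HYI (25 bins) and from TESK2 to MAST2 (34 bins) on chromosome 1, and from RPTOR to ZNF750 on chromosome 17 (202 bins with 65 genes). The longest stretch lay on chromosome 19 from ZNF573 to MZF1 and spanned 2081 bins with 674 genes, 146 of them zinc finger genes. It was 19.6% covered on average, with 18.9 ± 1.33% in EPZ, 20.9 ± 1.75% in P38i, 20.5 ± 2.18% in Combo and 18.05 ± 2.42% in Control cells (SD, n = 4 each). Groups overlapped.

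**Figure D2:**
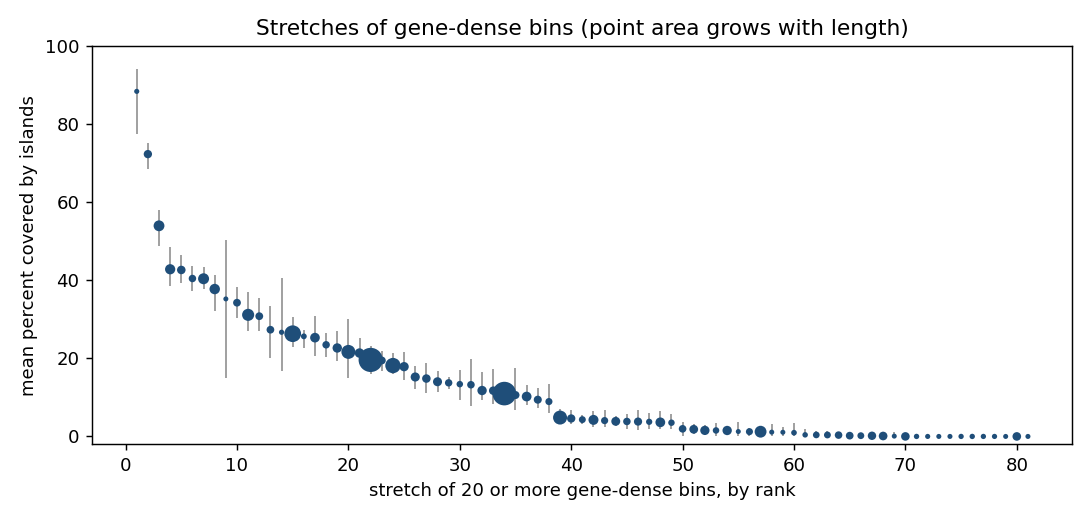
Mean percent covered over 16 libraries (points, area growing with the number of bins) and the lowest and highest library (vertical lines) for the 81 stretches of 20 or more gene-dense bins, ranked on the horizontal axis. The first 3, all olfactory receptor clusters, lie at 88.4, 72.3 and 53.9%, and 43 stretches lie under 5%.

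Runs of adjacent gene-dense bins that were at least 50% covered in every library marked the blocks present in all groups. There were 594 such runs, 37 of them 100 kb or longer, and 931 of their 1898 bins overlapped no protein-coding gene. The longest, 320 kb on chromosome 6 (chr6:25620001-25940000), held SCGN, the anion transporter genes SLC17A1 to SLC17A4, and H2AC1 and H2BC1, testis variants of histones, and was 94.4 to 98.8% covered in every library. A run of 280 kb on chromosome 20 held genes of WFDC and Kunitz protease inhibitors, EPPIN of the epididymis among them. The run of 240 kb on chromosome 1 held CD84, SLAMF1, CD48 and SLAMF7, receptors of the SLAM family of blood cells. On chromosome 7, GIMAP8, GIMAP7, GIMAP4 and GIMAP6 shared a run of 230 kb. Chromosome 11 had 2 runs of 220 kb, one with SLC22A24, SLC22A25 and SLC22A10, members of a family of organic ion transporters, and one with OR8B3, OR8B4, OR8B8, OR8B12 and OR8A1.

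By gene, coverage was taken over the gene span with 2.5 kb on each side. The 5716 genes in gene-dense bins were 11.0% covered on average, against 11.6% for the 13253 other genes, and 4224 of them (73.9%) had no island in any library, against 65.3% of the others. Of the listed families, 7 averaged over 40%. Olfactory receptors averaged 58.0% (265 genes, 163 of them at 50% or more), the epidermal differentiation complex 57.6% (60 genes), the leukocyte receptor complex 57.1% (24 genes), SIGLEC and CEACAM genes 50.9% (34 genes), chemokines 45.7% (19 genes), kallikreins 44.6% (15 genes) and cytochrome P450 genes 40.5% (26 genes). OR10G6 and OR2J1 were 100% covered in all libraries. S100A12, a calcium-binding protein of granulocytes, averaged 99.6%, CCL18 and CCL3 99.2 and 97.7%, and CYP3A4, a drug-metabolising enzyme of the liver, 93.9%.

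Clustered protocadherins, keratins and keratin-associated proteins were intermediate at 35.0, 22.96 and 20.8%. HLA and class III genes averaged 19.97%, with HLA-DQB2 at 99.2% and HLA-DRA at 97.3%, both of antigen presentation. Histone genes of the replication-dependent clusters averaged 6.63%, and 51 of 68 had no island. The highest were H2AC1 and H2BC1 at 99.1% each. Zinc finger genes averaged 6.18%, with 218 of 313 free of islands, although ZNF334 and ZSCAN23 were 99.3 and 98.9% covered. HOX genes of gene-dense bins averaged 3.89%, and HOXC13, a factor of hair and nail, had the highest value at 49.7%.

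Housekeeping families had almost no island. Of 30 ribosomal protein genes, 28 had none in any library, and RPS19 and RPL38 averaged 2.57 and 1.69%. All 19 proteasome genes were at 0. Of 44 genes of the mitochondrial ribosome and NADH dehydrogenase 41 had none, and of 14 spliceosome genes 13 had none. The 7 genes of the luteinizing and chorionic gonadotropin beta cluster, hormones of pituitary and placenta, and 4 apolipoprotein genes had no island in any library.

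**Figure D3:**
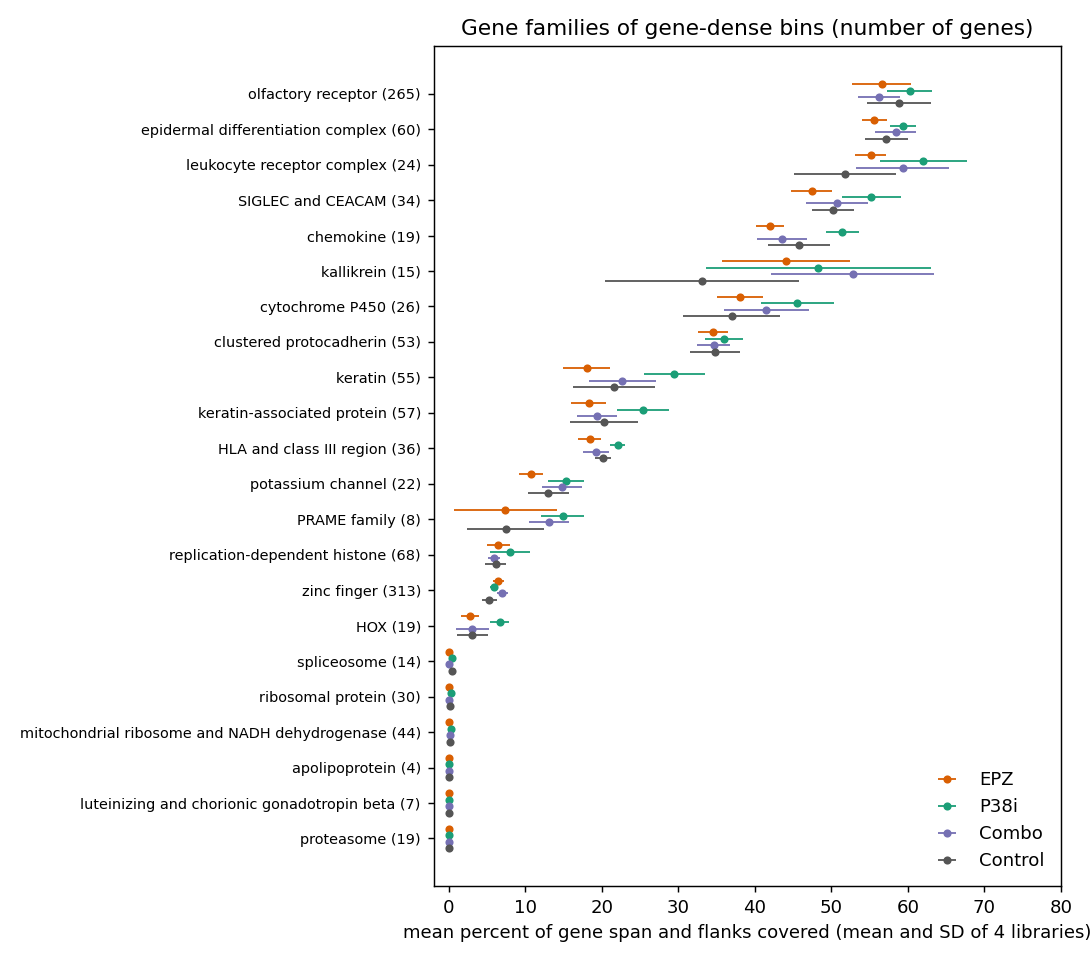
Mean percent covered of the gene families in gene-dense bins (horizontal axis; number of genes in brackets), as mean and SD of 4 libraries for EPZ, P38i, Combo and Control cells from top to bottom within each family. Olfactory receptors average 58.0% and proteasome genes 0%, a wider spread than that between groups in any family.

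Treatments were compared bin by bin with limma over all 87730 bins of the genome whose mean coverage lay between 5 and 95%. Of the gene-dense bins 4266 entered (22.5%), 13867 lay below 5% and 853 above 95%. P-values were adjusted by the Benjamini-Hochberg method over all tested bins, a bin was called at an adjusted p of 0.05 or less, and differences are in percentage points of the bin. Filtering on the mean keeps bins that vary, so the tested bins do not stand for all gene-dense bins.

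Few gene-dense bins differed between a single treatment and Control. EPZ against Control gave 0 called gene-dense bins (0.00342% of all tested bins were called), with 400 at an unadjusted p under 0.05, of which 125 were higher and 275 lower in EPZ. P38i against Control gave 0 (0.0% of all tested), with 398 at an unadjusted p under 0.05, of which 381 were higher and 17 lower in P38i. Combo against Control gave 1, higher in Combo (0.0114% of all tested were called, 0.00456% higher and 0.00684% lower), with 377 unadjusted. The unadjusted counts were 9.38% of the gene-dense bins tested for EPZ, 9.33% for P38i and 8.84% for Combo. Over all tested bins these shares were 12.6%, 5.35% and 11.9%. Gene-dense bins called were 4 for EPZ without EPZ replicate 4 and 5 without Control replicate 4, and 1 for P38i without Control replicate 4. The median difference of the 4266 gene-dense bins was -2.0 points for EPZ, 6.0 points for P38i and 1.5 points for Combo against Control. Over all tested bins the medians were -5.5, 2.5 and -2.0 points, so gene-dense bins stood 3.5 points higher in each. These comparisons share the Control libraries. Covered length of the lists averaged 514 ± 54.3 Mb in EPZ, 604 ± 59.3 Mb in P38i, 550 ± 41.8 Mb in Combo and 574 ± 74.9 Mb in Control cells (SD, n = 4 each), and its part in these shifts was not tested. Lists were also cut to equal length by keeping the widest islands of each, which takes narrow islands out of the longer lists only. Mean coverage of gene-dense bins was then 14.01% in EPZ, 14.2% in P38i, 14.2% in Combo and 13.0% in Control cells. EPZ was then above Control and not below it, but this cut is not neutral to island width.

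Combo against EPZ gave 0 called gene-dense bins (0.00114% of all tested) and Combo against P38i gave 0 (0.00228%), with 212 and 396 at an unadjusted p under 0.05. Combo against EPZ called 1 without EPZ replicate 3, and Combo against P38i called 1 without P38i replicate 1. The interaction, which asks whether the effect of the EZH2 inhibitor differed with and without P38i, gave 0 (0.0% of all tested), with 142 unadjusted. In the same order, the unadjusted counts were 4.97, 9.28 and 3.33% of the gene-dense bins tested. Over all tested bins these shares were 6.09, 10.1 and 3.76%.

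The single bin called in Combo against Control was chr19:56480001-56490000, between the zinc finger genes ZNF667 and ZNF471 and overlapping no protein-coding gene. By mean it was 90.5 ± 9.15% covered in Combo and 0% in all 4 Control libraries, a difference of 90.5 ± 14.4 points (SE; limma adjusted p = 0.0340). EPZ libraries averaged 79.0 ± 21.2% and P38i libraries 43.5 ± 24.1% (SD, n = 4). The Combo and Control groups did not overlap. Control was at 0 throughout while P38i libraries had an SD of 24.1 points, so the spread shared over groups does not describe each group. The call was lost on leaving out P38i replicate 1, Combo replicate 1, 2 or 4, or Control replicate 1, 2 or 3, with a highest adjusted p of 0.158 without Control replicate 3. Without Control replicate 4, 3 bins were called.

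The clearest comparison set the 8 libraries with the EZH2 inhibitor (EPZ and Combo) against the 8 without it (P38i and Control), as a main effect that averages over P38i. It called 32 gene-dense bins in 16 stretches, 5 higher and 27 lower with the inhibitor. That is 0.750% of the gene-dense bins tested, beside 1.22% of all tested bins. Higher bins were 0.117% of those tested, against 0.0957% of all tested bins, and lower bins 0.633%, against 1.13%. The median difference was -4.25 points in gene-dense bins and -5.5 points in all tested bins. Leaving out 1 library gave 6 bins without P38i replicate 3 or Control replicate 2, 7 without Control replicate 3, 8 without P38i replicate 1, 54 without P38i replicate 4 and 57 without Control replicate 4. Other single libraries that moved the count by over 1.5 times left 11 without P38i replicate 2, 12 without EPZ replicate 2 or Combo replicate 1, 14 without Combo replicate 4 or Control replicate 1, 16 without EPZ replicate 1 and 20 without Combo replicate 2. With covered length as a covariate 1 bin was called, and with lists cut to equal length 0.

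All 5 bins that rose lay on chromosome 19, and 3 of them overlapped the zinc finger genes ZNF793, ZNF578 and ZNF560. The bin in ZNF578 (chr19:52470001-52480000) averaged 47.0 ± 22.3% with and 0.750 ± 2.12% without the inhibitor (SD, n = 8 each), a difference of 46.3 ± 9.21 points (SE; limma adjusted p = 0.0197), and the sides did not overlap. Among bins that fell, 4 named by the rule had sides that did not overlap. How many tested bins had sides apart, called or not, was not counted, so this number is no result about these bins. The bin chr17:39880001-39890000, just beyond ZPBP2, averaged 35.0 ± 25.2% with and 85.5 ± 9.84% without the inhibitor. On chromosome 3, chr3:48340001-48350000 averaged 16.0 ± 13.7% with and 63.5 ± 14.5% without it. On chromosome 6, chr6:32870001-32880000 averaged 37.5 ± 9.18% with and 82.5 ± 15.6% without, and on chromosome 11, chr11:61070001-61080000 averaged 48.3 ± 13.0% with and 84.3 ± 9.53% without (SD, n = 8 each). Their limma adjusted p-values were 0.0278, 0.0239, 0.0228 and 0.0381.

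Over genes, the same fit was run on all 3945 protein-coding genes with a mean coverage from 5 to 95%. Of the genes in gene-dense bins 972 were tested, 4602 lay below and 142 above. The main effect of the EZH2 inhibitor called 85 (8.74%), 15 higher and 70 lower. It averages EPZ minus Control and Combo minus P38i, so a called gene need not differ in both. Of all tested genes 17.0% were called, 0.913% higher and 16.1% lower. Genes of gene-dense bins were thus called lower less often (7.20%) and higher more often (1.54%) than the tested genes as a whole, as a description. The median difference was -3.22 points, which compares with -4.85 points for the whole table of tested genes. The split of calls differed between settings. Taking covered length as a covariate, 31 were higher and 22 lower, and with lists of equal length 20 were higher and 7 lower. Without P38i replicate 3 the count was 55.

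Zinc finger genes made up 11 of the 15 that rose. These genes encode DNA-binding proteins, many with a KRAB domain that recruits co-repressors to transposable elements. Of 50 tested, 11 rose and 1, on chromosome 8, fell. Their median difference was 3.80 points, and 33 of the 50 differences were above 0. The rise was not confined to gene-dense bins. Of 37 zinc finger genes tested elsewhere, 7 rose and 4 fell, with a median difference of 1.98 points. Of the 11 in gene-dense bins that rose, 10 lie on chromosome 19 and ZNF165 on chromosome 6. ZNF582, ZNF667, ZNF471 and ZIM2 lie close together, between chr19:56382751 and chr19:56840726. Neighbouring genes can share islands, so genes of 1 cluster are not independent points. In all 11 the mean was higher in EPZ than in Control and higher in Combo than in P38i cells. These genes were picked by the average of those differences, so this is no separate support. Of all 50 tested, 37 were higher in EPZ than in Control and 34 higher in Combo than in P38i cells.

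ZNF560 (chr19:9445876-9506692) was named by the rule. It was 48.9, 52.6, 76.0 and 67.1% covered in EPZ cells, 41.6, 45.0, 51.6 and 33.1% in P38i cells, 55.9, 50.1, 68.1 and 67.1% in Combo cells, and 41.3, 42.8, 10.3 and 18.8% in Control cells. All EPZ and all Combo libraries were above all Control libraries, and 1 P38i library lay within the range of both. The main effect was 25.1 ± 5.76 points (SE; limma adjusted p = 0.0105, at most 0.0233 without any 1 library).

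The largest rise among zinc finger genes was at ZNF471 (chr19:56507855-56530212), described here after its values were seen. It was 45.5, 44.8, 60.5 and 66.4% covered in EPZ, 21.4, 36.0, 43.1 and 14.8% in P38i, 40.1, 52.8, 71.8 and 67.8% in Combo, and 43.0, 18.4, 11.7 and 0% in Control cells. EPZ libraries stood above all Control and P38i libraries, and 1 Combo library lay below the highest of both. The main effect was 32.7 ± 6.86 points (SE; limma adjusted p = 0.00703). Its neighbours ZNF582 and ZNF667 were also chosen after their values were seen. ZNF582 averaged 51.3 ± 13.8% with and 22.6 ± 11.95% without the inhibitor, and ZNF667 57.8 ± 12.9% with and 32.7 ± 11.4% without it (SD, n = 8 each). ZNF382 had no island in any of the 8 libraries without the inhibitor, and 0 to 49.7% (median 23.1%) with it, so the sides touched at 0.

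On leaving out any 1 library 10 or 11 of the 11 zinc finger genes were still called higher, the exception being ZNF165. It was not called without EPZ replicate 2, P38i replicate 2 or 3, Combo replicate 1 or Control replicate 2 (highest adjusted p = 0.0588). Taking covered length as a covariate, 10 were still called higher, and 9 without the 3 shortest lists. With lists of equal length 7 were still called higher, ZNF165, ZNF382 and ZNF582 were not called, and ZNF540 could not be tested. A total of 13 zinc finger genes rose and 0 fell with the covariate, and 9 rose and 0 fell with equal lists.

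Of 151 olfactory receptor genes tested, 13 fell (8.61%) and 2 rose (1.32%), beside 7.20% and 1.54% of all tested genes of gene-dense bins and 16.1% and 0.913% of all tested genes. Their median difference of -3.93 points lay between the medians of those wider groups, -3.22 and -4.85 points, so the share that fell is no result about the family. OR52N5 (chr11:5776165-5783355) was 0, 31.6, 0 and 19.7% covered in EPZ cells, 93.4, 64.0, 78.7 and 62.3% in P38i cells, 44.3, 34.5, 49.2 and 44.3% in Combo cells, and 96.3, 82.0, 100% and 52.5% in Control cells. Every library with the EZH2 inhibitor was below every library without it. The main effect was -50.7 ± 7.34 points (SE; limma adjusted p = 0.00151), and EPZ differed from Control by -69.9 ± 10.4 points (limma adjusted p = 0.00650). On chromosome 12, 5 receptors of 1 cluster fell, OR6C2, OR6C3, OR6C74, OR6C75 and OR6C76, chosen after their values were seen. Of these, OR6C76 alone was still called with lists of equal length. OR6C76 had a median of 15.9% (0 to 48.7%) with and 73.2% (21.0 to 100%) without the inhibitor. The 2 that rose were OR3A1 and OR5D18. OR5D18 lost its call on leaving out any of 13 of the 16 libraries. Under the covered length covariate 2 olfactory receptors fell and 2 rose, and with lists of equal length 4 fell and 1 rose.

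**Figure D4:**
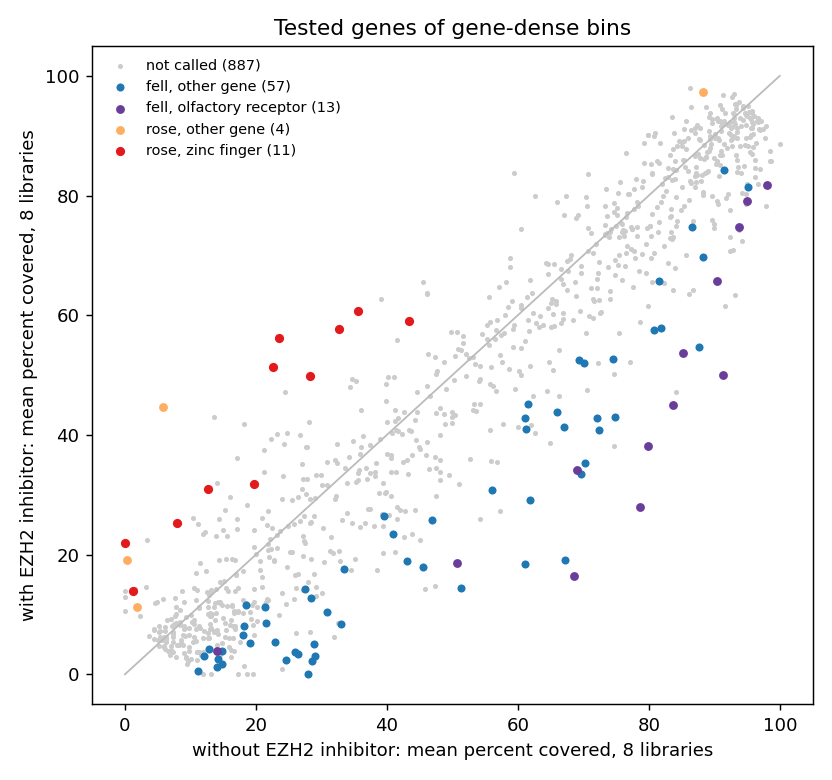
Mean percent covered of the 972 tested genes of gene-dense bins in the 8 libraries with the EZH2 inhibitor (vertical axis) and the 8 without it (horizontal axis); each point is 1 gene and the line marks equal values. The 11 zinc finger genes that rose lie above the line, and the 13 olfactory receptors and 57 other genes that fell lie below it.

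Other families fell at shares near or below those of the wider groups. Of 27 tested keratins 3 fell (11.1%) and 0 rose, of 31 keratin-associated proteins 2 fell (6.45%), and of 23 SIGLEC and CEACAM genes 2 fell (8.70%), against 7.20% of all tested genes of gene-dense bins and 16.1% of all tested genes. KRT24 averaged 19.1 ± 13.9% with and 67.3 ± 25.4% without the inhibitor, and KRT28 33.4 ± 22.04% with and 69.6 ± 13.4% without (SD, n = 8 each). KRT27 was called as well, but its mean was 39.96% in EPZ, 86.6% in P38i, 42.5% in Combo and 47.4% in Control cells, so that P38i stood apart. Neither EPZ nor Combo against Control was called at KRT27 (differences of -7.45 and -4.87 points, limma adjusted p = 0.570 and 0.739). CLEC7A, which encodes the receptor dectin-1, averaged 18.4 ± 18.8% with and 61.2 ± 17.0% without the inhibitor. With lists of equal length KRT24, KRT27, KRT28 and CLEC7A were no longer called. None of 15 kallikreins, 22 leukocyte receptor complex genes, 25 protocadherins, 16 cytochrome P450 genes or 10 chemokines was called by limma. At an unadjusted p under 0.05 there were 1 kallikrein, 1 cytochrome P450 gene and 2 chemokines, and 0 genes of the other 2 families. Of all tested genes of gene-dense bins 20.8% were under that value, and of all tested genes 32.6%.

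Only OR52N5, ZPBP2 and TSBP1 of the 85 called genes had sides that did not overlap. Among all 972 tested genes of gene-dense bins, called or not, the number was also 3. Over all 3945 tested genes it was not counted, here or for the comparisons with Control below. ZPBP2, a gene of sperm-egg binding, averaged 30.8 ± 14.03% with and 56.1 ± 9.94% without the inhibitor, a main effect of -25.3 ± 6.21 points (SE; limma adjusted p = 0.0144). TSBP1 in the HLA region averaged 69.7 ± 9.63% with and 88.2 ± 6.32% without, a main effect of -18.5 ± 4.02 points (SE; limma adjusted p = 0.00819). Both fell in a comparison where 16.1% of all tested genes were lower, and ZPBP2 was not called with the covered length covariate or lists of equal length.

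EPZ alone differed from Control at 13 genes of gene-dense bins (3.47% of all tested genes were called), 2 higher and 11 lower (0.127% of all tested were higher and 3.35% lower). The 2 higher were ZNF560 and OR3A1. Called or not, groups did not overlap at 41 of the 972 tested genes of gene-dense bins. With an adjusted p below 0.05 and groups that did not overlap, 10 genes fell. They were OR52N5, OR2AG1, OR56B2, KRT24, KRT28, CLEC7A, CLEC12B, KLRF2, CD3E and FBXW12. CD3E, a chain of the T-cell receptor complex, was 32.7, 11.99, 32.8 and 4.69% covered in EPZ and 53.3, 53.3, 72.8 and 58.2% in Control cells, a difference of -38.9 ± 9.06 points (SE; limma adjusted p = 0.0347). KRT28 was 25.1, 18.8, 0 and 29.8% covered in EPZ and 78.8, 69.4, 72.5 and 70.5% in Control cells, a difference of -54.4 ± 10.2 points (limma adjusted p = 0.0193). OR2AG1 was 58.2, 24.1, 67.5 and 0% covered in EPZ and 100, 94.1, 100 and 100% in Control cells, a difference of -61.1 ± 14.3 points (limma adjusted p = 0.0347).

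Of these EPZ calls only that of OR52N5 held on leaving out any single library (adjusted p at most 0.0326). Without EPZ replicate 2 the count was 1, without Control replicate 2 it was 1, without EPZ replicate 1 or Control replicate 3 it was 2, and without Control replicate 1 it was 5. It was 21 without EPZ replicate 4, 24 without P38i replicate 4 and 26 without Control replicate 4. CD3E and OR2AG1 reached an adjusted p of 0.108 and KRT28 0.0705 without EPZ replicate 2. The covered length covariate gave 13 genes higher and 2 lower in EPZ, and with lists of equal length 1 was higher and 0 lower.

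P38i alone gave 5 genes, all higher than Control (0.279% of all tested genes were called higher, 0.0% lower). The groups did not overlap at any of these 5. Called or not, they did not overlap at 45 of the 972 tested genes of gene-dense bins. ALOX15, which encodes an arachidonate lipoxygenase, was 30.3, 21.4, 29.2 and 22.7% covered in P38i cells, 0, 0, 0 and 8.74% in Control cells, 0% in all EPZ cells, and 2.40, 0, 7.47 and 0% in Combo cells. P38i exceeded Control by 23.7 ± 2.72 points (SE; limma adjusted p = 7.3e-04). KRT27 was 99.5, 75.3, 100 and 71.6% covered in P38i and 56.7, 47.4, 47.4 and 38.1% in Control cells, a difference of 39.2 ± 6.62 points (limma adjusted p = 0.0233). LINGO4 had no island in EPZ and Control cells and averaged 38.3 ± 13.02% in P38i and 10.4 ± 12.05% in Combo cells. TAC3, which encodes neurokinin B, averaged 46.4 ± 7.93% in P38i and 6.50 ± 13.01% in Control cells, and LACRT, a tear protein gene, 72.5 ± 12.7% in P38i and 12.7 ± 25.3% in Control cells (SD, n = 4 each).

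The spread shared over groups may be too small where a group is at 0 throughout, as at LINGO4. Calls of ALOX15 and LINGO4 held without any 1 library. TAC3 and LACRT reached adjusted p-values of 0.0877 and 0.0977 without Control replicate 3, and KRT27 0.0650 without P38i replicate 3. Calls of TAC3 and KRT27 were lost without P38i replicate 3 or Control replicate 2, 3 or 4, and that of LACRT without P38i replicate 2 or 3 or Control replicate 3 or 4. The count was 2 without P38i replicate 3, 3 without Control replicate 3 or 4, 8 without P38i replicate 1, and 13 without P38i replicate 4 or Control replicate 1. A fit of only the P38i and Control groups called 0.

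Combo differed from Control at 6 genes of gene-dense bins (1.72% of all tested), 1 higher and 5 lower (0.253% and 1.47% of all tested). OR3A1 was 99.5, 96.3, 100 and 97.9% covered in Combo and 94.7, 78.5, 83.3 and 80.1% in Control cells, a difference of 14.3 ± 3.11 points (SE; limma adjusted p = 0.0345). KRT24 was 0, 27.5, 15.9 and 21.5% covered in Combo and 93.9, 64.7, 88.8 and 64.7% in Control cells, a difference of -61.8 ± 13.3 points (limma adjusted p = 0.0335). TRIM15, a ubiquitin ligase gene of the HLA region, averaged 51.4 ± 5.64% in Combo and 77.2 ± 6.75% in Control cells (SD, n = 4 each; limma adjusted p = 0.0440). At these 3 genes the groups did not overlap. Called or not, groups did not overlap at 48 of the 972 tested genes of gene-dense bins. The count of called genes was 0 without Combo replicate 1 or 4, and 1 without Combo replicate 2 or Control replicate 2 or 3. It was 3 without P38i replicate 2, 11 without P38i replicate 4 and 15 without Control replicate 4. The call of TRIM15 was lost on leaving out any of 12 single libraries, and those of OR3A1 and KRT24 on leaving out any of 6 and 7. Taking covered length as a covariate, 36 genes were higher and 11 lower, and with lists of equal length 17 were higher and 4 lower.

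**Figure D5:**
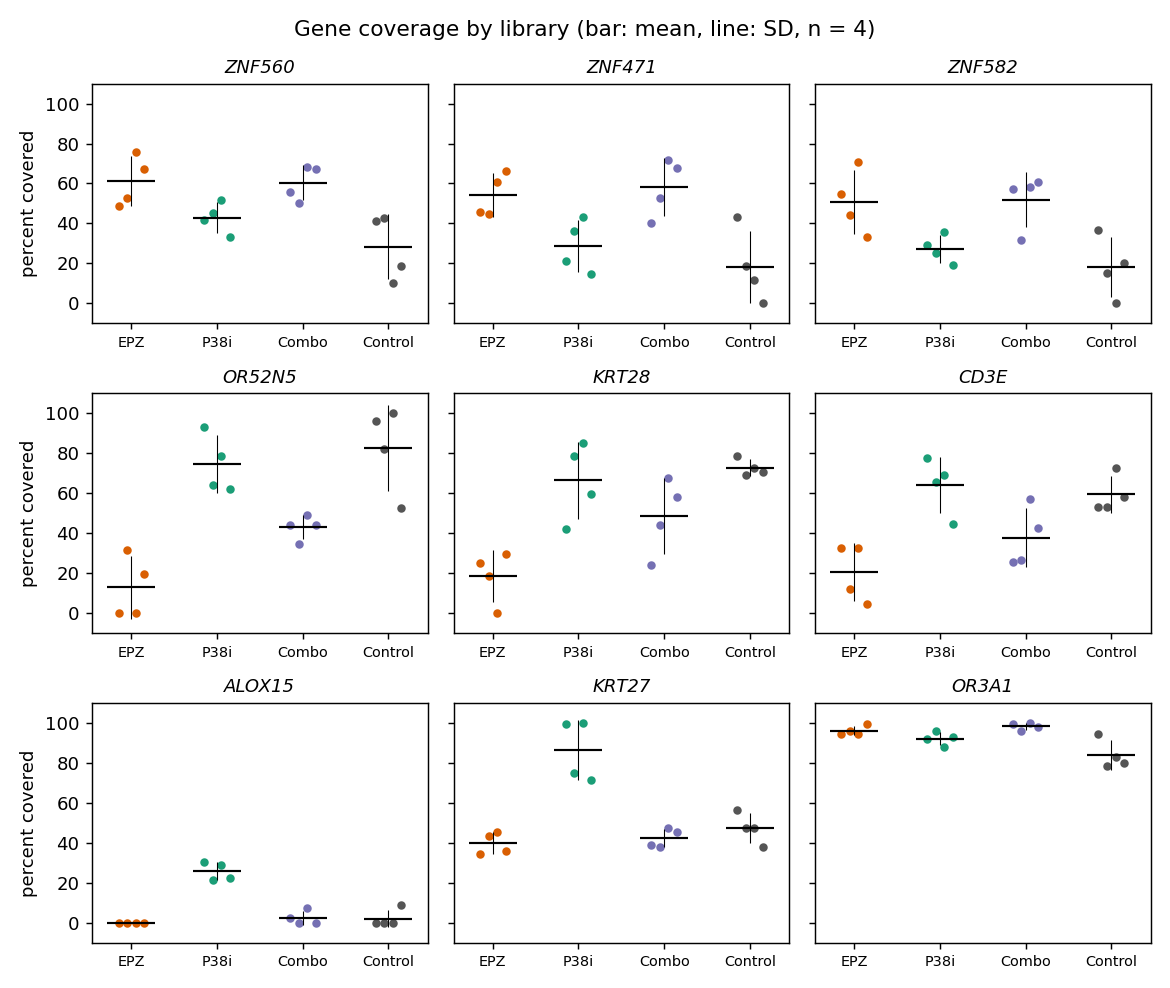
Percent covered of 9 genes in gene-dense bins (vertical axes) in each library of EPZ, P38i, Combo and Control cells; points are libraries, thick bars group means and thin lines 1 SD (n = 4). ZNF560, ZNF471 and ZNF582 have higher means in EPZ and Combo than in Control cells, OR52N5 is lower in both, and ALOX15 and KRT27 are highest in P38i cells.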

How the data were processed

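H3K27me3 ChIPmentation of MDA-MB-231 cells was analysed in 16 libraries, 4 per treatment. The authors deposited 1 list of islands per library with chromosome, start and end on hg38, and no score, count or p-value. The submitters' processing notes name SICER and bedtools 2.28.0, Bowtie2 2.3.4.1 with SAMtools 1.2, Picard, and also cutadapt, FastQC and Trim Galore, without their order or roles. SICER's version and its parameters are unstated in those notes. Islands in the files fell on windows of 200 bp, with gaps of 800 bp or more. Depth is unknown, so no counting interval is given.

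Percent covered was computed per 10-kb bin and per gene span with 2.5 kb on each side. Of 19122 protein-coding RefSeq rows, 153 carried scaffold coordinates and were left out. Bins and genes with a mean coverage of 5 to 95% entered 1 robust limma fit with a mean-variance trend (version 3.58.1 under R 4.3.3) of all 16 libraries, with Benjamini-Hochberg adjustment over all tested features and a threshold of 0.05. The fit was run on simulated data with residuals shuffled within each feature. Such data cannot check effects of list length or of islands shared by neighbouring bins. Coverage was computed in Python 3.11.15 with pandas 2.3.3 and numpy 2.4.6, and figures with matplotlib 3.10.9.

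The genes named were called genes whose groups did not overlap, up to 10 with the largest rise and fall per comparison, and the 2 most covered genes per family. The stretches named were the 8 most and 4 least covered of at least 20 bins and the longest; named bins were called bins with groups apart, 1 per stretch. Of the least covered stretches, 1 is not reported here. The members, families and rules were chosen with earlier results of these data known. Alternatives were the replicate number as a block, covered length as a covariate and no filter. Lists were also cut to the shortest (462 Mb) by keeping each list's widest islands. Further alternatives were an arcsine square root scale, fits of 2 groups, leaving out each library, bins shifted by 5 kb, and thresholds of 30 and 50 genes. Added after seeing the data were membership counting scaffold rows and a fit without the 3 shortest lists.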

Additional observations from a re-analysis of the deposited data

Results flagged for a closer look

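In each group of 4 libraries, a value was set apart when its gap to the nearest other value exceeded the 95% critical value of Dixon's ratio of gap to range. This was checked for the mean coverage of gene-dense bins and for 20 named genes, 84 groups in all, and 11 groups had such a library. Chance gives about 1 in 20 for normally distributed values. Coverage is bounded, and ties at 0 or 100% can set a value apart, so that rate need not hold here. Groups of 4 equal values count among the 84 but cannot be flagged. No mean coverage of gene-dense bins was among the 11 flagged groups. At OR2AG1, Control replicate 2 was at 94.1% while the other 3 were at 100%. At CLEC12B, Control replicate 4 was at 69.3%, below the others at 91.5 to 95.5%. At LACRT, EPZ replicate 1 was at 42.8% (others 29.6 to 31.8%), Combo replicate 2 at 33.0% (others 58.2 to 62.6%) and Control replicate 2 at 50.6% (others 0%). At TAC3, EPZ replicate 3 was at 27.8% and Control replicate 1 at 26.02%, each with the others at 0%. At ALOX15, Control replicate 4 was at 8.74% with the others at 0%. At TRIM15, Control replicate 1 was at 87.3% (others 73.5 to 74.6%). At ZPBP2, EPZ replicate 2 was at 4.06% (others 38.1 to 44.2%), and at TSBP1, Combo replicate 3 was at 77.9% (others 71.7 to 72.4%). The interaction of the inhibitors was called at no gene-dense bin.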

How the results depend on the processing

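With the replicate number as a block, called gene-dense bins were 17 in the main effect and 0 in Combo against Control, and called genes 7 for EPZ, 3 for P38i and 3 for Combo against Control. Same-numbered libraries of different groups had correlations of their deviations from -0.0684 to 0.0860 over tested bins. For differently numbered libraries they ran from -0.0701 to 0.0736. These ranges are similar, but ranges alone cannot tell whether the numbers pair the libraries, which the labels do not say. Under a covered length covariate, the main effect gave 1 bin and 53 genes, P38i 3 genes and Combo 47 genes. With lists of equal length it gave 0 bins and 27 genes, EPZ and P38i against Control 1 gene each, and Combo against Control 0 bins and 21 genes. Those lists put gene-dense coverage at 14.01% in EPZ, 14.2% in P38i, 14.2% in Combo and 13.0% in Control cells. With no filter, bins were 3 for Combo against Control, 3 for Combo against EPZ and 4 for Combo against P38i, and genes 6 for EPZ and 9 for P38i. The arcsine scale gave 50 bins in the main effect and 1 for EPZ. Fits of 2 groups gave 0 bins for Combo, and 4, 0 and 3 genes for EPZ, P38i and Combo against Control. Bins shifted by 5 kb gave 0 for Combo against Control and 1 for Combo against P38i. At 30 or more genes, 56 bins were called in the main effect and coverage was 13.98% in EPZ and 15.1% in Combo cells. Without the 3 shortest lists, bins were 12 in the main effect, 1 for EPZ, 0 for Combo against Control and 1 for Combo against EPZ, and genes 3 for EPZ, 1 for P38i and 15 for Combo. Counting scaffold rows gave 19206 gene-dense bins and moved no count by over 1.5 times.

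Leaving out 1 library gave 0 to 5 bins for EPZ, 0 to 1 for P38i, 0 to 3 for Combo against Control, 0 to 1 for Combo against EPZ and against P38i, 6 to 57 in the main effect and 0 in the interaction. Genes ranged from 1 to 26 for EPZ, 2 to 13 for P38i, 0 to 15 for Combo and 55 to 112 in the main effect. Mean coverage ranged from 14.9 to 15.6% in EPZ, 17.4 to 18.6% in P38i, 15.9 to 16.9% in Combo and 15.3 to 16.6% in Control cells. Over 142 called bins and genes and all these settings, 1866 of 2988 values kept their call, 1121 lost it, and 1 reversed, KRTAP10-1 in the main effect (6.61 points with lists of equal length). The cause of these changes was not tested. Unknown depth limits all comparisons, since a list's length may follow its depth.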

Other observations

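The range of shared coverage between pairs of libraries lay higher in gene-dense bins than over all bins, although the ranges overlapped. The shared coverage of a pair of libraries, as the sum over bins of the lower value divided by that of the higher, was 73.2 to 82.6% within groups and 68.9 to 81.7% between groups in gene-dense bins. Over all bins it was 65.4 to 77.5% within groups and 63.3 to 77.2% between groups, over 24 and 96 pairs. These pairs share libraries and get no test. The widest range between libraries among stretches of 20 or more gene-dense bins was at a single gene, GRIK1 (a kainate receptor subunit of neurons) on chromosome 21. Its 21 bins were 27.6% covered in EPZ, 44.3% in P38i, 26.6% in Combo and 42.4% in Control cells, and single libraries lay between 14.9 and 50.3%. The stretch was picked for this range after its values were seen.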
